A study of Mus musculus with 113 samples.

Results

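*Fyn* encodes a membrane-bound tyrosine kinase of the Src family, and it was followed here with 8 genes around it through neural induction of mouse embryonic stem cells (mESCs). They were chosen by name, with earlier results of these data known. *Src*, *Yes1*, *Lyn*, *Lck* and *Fgr* are further Src family kinases, *Csk* and *Pag1* restrain the family, and *Ptk2* encodes focal adhesion kinase, which works together with it. All 9 were found among 23739 gene symbols in the deposited tables: 9 in adherent culture, 9 in E14 cells, 8 in SFEB populations (*Pag1* is not listed there) and 5 in single cells (*Fyn*, *Src*, *Lck*, *Csk* and *Ptk2*).

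RNA-seq levels were given for 113 samples in 4 tables. R1 mESCs were induced as SFEB aggregates (clumps of cells that float in medium without serum), with 14 populations of a first series from 0 to 142 h, 8 populations of a parallel series from 0 to 216 h, and 64 single cells, 8 at each time of the parallel series. R1 cells were also induced as an adherent monoculture, with 15 samples from 0 to 216 h. By the protocols, both cultures were replated on coated dishes at day 6, and SFEB cells changed medium then, so the 216 h samples come from attached cells in both. Whether those of 144 h were taken before that step is not stated. E14 mESCs, wild type (WT) or *Fyn* knockout (KO), were sampled at days 0 and 4 of induction with 3 replicates per group. The KO is 1 clone in which Cas9 and a pair of guides removed the part of *Fyn* that holds its initiation codon, so clone and knockout cannot be told apart. The E14 labels do not say whether replicates were separate cultures, and p-values may then measure technical spread only. Each R1 time point is 1 library.

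As background, Src family kinases sit at the inner face of the plasma membrane and pass signals from integrins, growth factor receptors and cell adhesion molecules. They are held shut when Csk phosphorylates a tyrosine in their tail, and Pag1 is a membrane adaptor that can bring Csk to them. *Src*, *Yes1* and *Fyn* are known from many tissues, while *Lck* is best known from T cells and *Lyn* and *Fgr* from blood cells. In the nervous system Fyn is known for its part in Reelin signalling, axon outgrowth and myelination.

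The tables give no read counts, and levels are in FPKM, fragments scaled to gene length and library size. Among the E14 libraries, FPKM under 0.1 placed the relative depth between 0.883 and 1.15 times that of WT day 0 replicate 1. This is a rough estimate, since only 7.95% to 20.8% of the low genes used in a compared library lay at its most common value. The tables do not give the depth of each R1 population, and for the parallel series the study names only a minimum. In E14 cells 3 libraries stood apart from their groups. KO day 0 replicate 3 had *Otx2*, an epiblast gene, at 12.4 FPKM, against 0.40 and 0.40 in the other KO day 0 samples, and its correlation with them across genes was 0.931 and 0.946, while theirs was 0.981. WT day 4 replicate 1 had the neural progenitor gene *Sox1* at 47.2 FPKM, against 7.81 and 11.6 in replicates 2 and 3, and *Fabp7* at 47.4 against 0.63 and 7.49, and its correlations with them were 0.942 and 0.946, while theirs was 0.965. WT day 0 replicate 1 had *Otx2* at 1.02 FPKM, against 8.57 and 9.00 in replicates 2 and 3, with correlations of 0.959 and 0.962, while theirs was 0.981. In KO at day 4 *Sox1* was at 0.99, 1.27 and 7.08 FPKM, and none of the 3 neural progenitor markers tested passed in limma between KO and WT at day 4, although 2 had an unadjusted p under 0.05. At day 0 the 5 neuron markers summed to 181, 121 and 206 FPKM in KO and to 86.3, 24.4 and 58.9 in WT. Most of the KO sums was *Stmn2* alone, at 168, 110 and 157 FPKM. *Stmn2* also led in WT replicates 1 and 2 (69.3 and 12.9), and *Tubb3* in WT replicate 3 (33.1). None of the 4 tested passed in limma there (1, *Stmn2*, at an unadjusted p under 0.05, with a difference of 2.28, log2, and an adjusted p of 0.0754). The part of these markers in the results was not tested. In bulk samples, fewer cells of a type and less RNA per cell cannot be told apart.

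*Fyn* itself was lower in every KO sample than in every WT sample of the same day. At day 0 it stood at 3.21, 2.74 and 4.00 FPKM in WT and at 0.60, 0.60 and 1.10 in KO. At day 4 it stood at 9.44, 4.54 and 6.76 FPKM in WT and at 1.19, 1.13 and 1.58 in KO. How many of all genes had groups without overlap, with 3 samples on each side, was not counted. The KO mean of *Fyn* was 23.1% of the WT mean at day 0 and 18.8% at day 4. An FPKM sums over the whole gene, so exons outside the deleted part can still add to the KO value. No other protein-coding gene overlaps *Fyn* in the mouse annotation of build NCBIM37 (chr10:39088661-39285187).

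Differences were tested with limma on log2(FPKM + 1) over 12257 genes, with an adjusted p of 0.05 as the threshold, on a scale that understates changes of low genes. At day 4 *Fyn* fell by 1.74 ± 0.24 (SE, log2; adjusted p = 0.0193) in KO against WT. *Fyn* is the gene deleted in the clone, so its fall was set by the design and is no result about the family. Of the 8 tested members the other 7 did not pass, where 0.0734% of all genes tested (9 genes) did. *Pag1* was too low in E14 cells to be tested. At day 0 the difference of *Fyn* was −1.29 ± 0.24 (SE, log2), with an adjusted p of 0.0601, and none of the 8 members passed in limma (1, *Fyn*, at an unadjusted p under 0.05), against 0.171% of all genes (21 genes). The day 4 call did not hold without KO day 4 replicate 1, 2 or 3 (adjusted p 0.125, 0.115 and 0.0542) or without WT day 4 replicate 1 or 3 (0.0549 and 0.0627). The day 0 difference passed without WT day 4 replicate 1 or 2 (0.0380 and 0.0449) and without KO day 0 replicate 3 and WT day 4 replicate 1 together (−1.42, adjusted p 0.0300). It also passed with the replicate number as a block (adjusted p 0.0436, with 38 genes in all) and with a pseudocount of 0.1 FPKM (−2.01, adjusted p 0.0486). Without all 3 libraries that stood apart, *Fyn* passed at day 0 (−1.44, adjusted p 0.0264, with 245 genes in all) and not at day 4 (−1.52, adjusted p 0.0519, with 17 genes in all). The count of all genes at day 0 was 7 and 10 without KO day 0 replicate 1 and 2, 13 and 13 without KO day 4 replicate 1 and 3, and 128, 4 and 8 without WT day 0 replicate 1, 2 and 3. It was 34 and 12 without WT day 4 replicate 1 and 3. At day 4 it was 5 without KO day 4 replicate 1 and 14 without WT day 4 replicate 3.

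**Figure D1:**
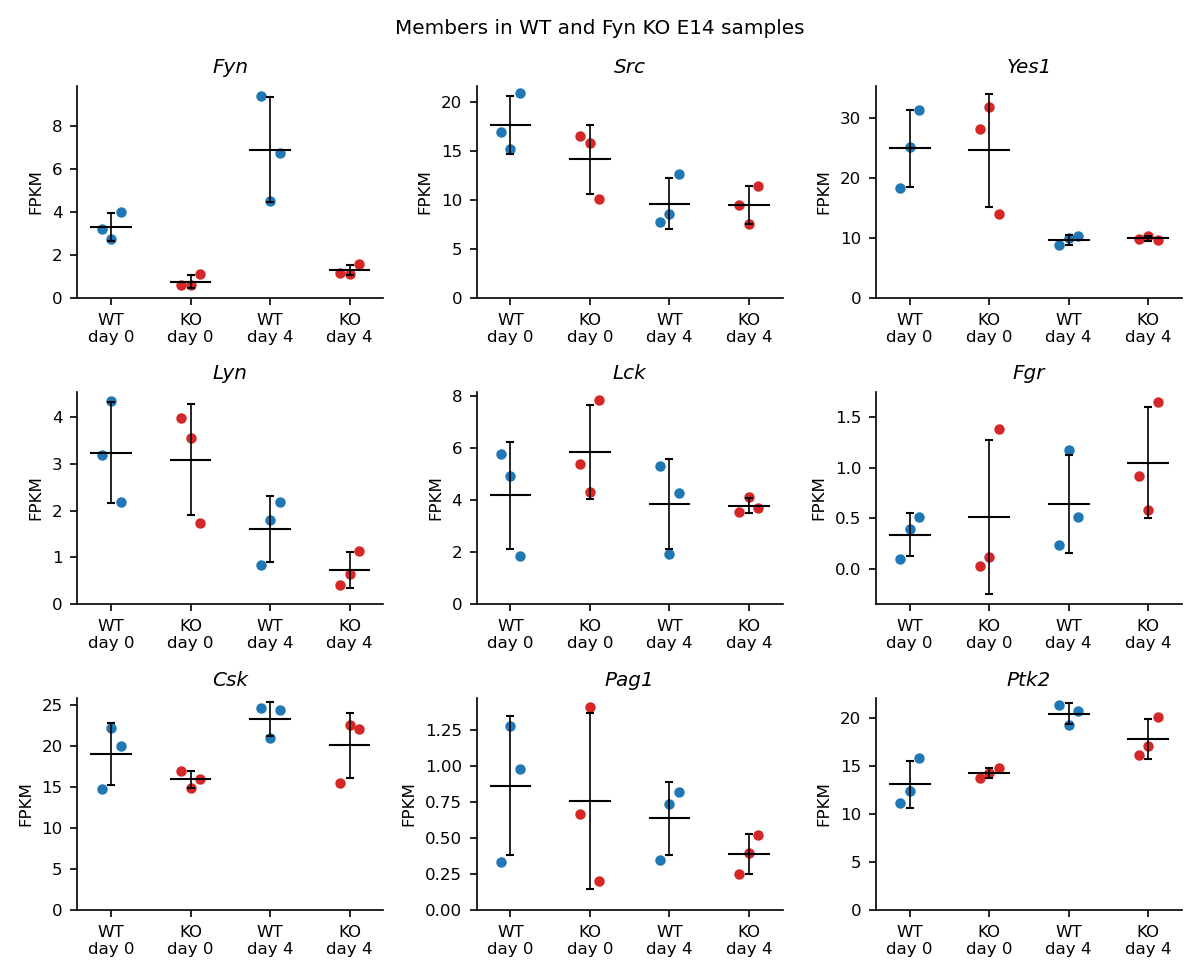
FPKM of the 9 members in E14 samples, WT in blue and KO in red, at days 0 and 4; points are the 3 replicates, lines the mean and bars the SD. *Fyn* at day 4 is between 4.54 and 9.44 in WT and between 1.13 and 1.58 in KO.

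None of the other Src family kinases passed in limma between KO and WT on either day. *Src*, the founding member, was at 16.96, 15.2 and 21.0 FPKM in WT and 16.5, 15.9 and 10.1 in KO at day 0, where the lowest value came from KO replicate 3. At day 4 *Src* was at 7.74, 8.62 and 12.6 FPKM in WT and 9.47, 7.56 and 11.5 in KO, a difference of −0.01 ± 0.23 (SE, log2). *Yes1*, the member with the highest level at day 0, was at 18.4, 25.1 and 31.2 FPKM in WT and 28.1, 31.8 and 13.9 in KO, and at day 4 at 8.81, 9.91 and 10.4 in WT and 9.87, 10.4 and 9.59 in KO. For *Yes1* the 95% interval of the day 4 difference ran from −0.55 to 0.62 (log2), and for *Src* from −0.52 to 0.50. *Lyn* at day 4 was at 0.83, 1.80 and 2.19 FPKM in WT and 0.41, 0.64 and 1.14 in KO, with a difference of −0.57 ± 0.31 (SE, log2; adjusted p = 0.488). *Lck* and *Fgr* differed by 0.06 ± 0.35 and 0.33 ± 0.35 (SE, log2) at day 4, with *Fgr* under 2 FPKM in every E14 sample. With 1 library left out, *Lck* lay between −0.27 and 0.28, and *Fgr*, where tested, between 0.14 and 0.50.

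Nor did the restraining and partner genes pass the test. *Csk*, the kinase that closes the family, was at 24.6, 20.9 and 24.3 FPKM in WT and 15.5, 22.6 and 22.1 in KO at day 4, a difference of −0.22 ± 0.18 (SE, log2; adjusted p = 0.676). With 1 library left out that difference lay between −0.31 and −0.05, the latter without KO day 4 replicate 1. *Ptk2* differed by −0.19 ± 0.15 (SE, log2; adjusted p = 0.643). *Pag1* ranged from 0.33 to 1.28 FPKM in WT day 0 and from 0.20 to 1.41 in KO day 0. At day 4 it ranged from 0.35 to 0.82 FPKM in WT and from 0.25 to 0.52 in KO, with means of 0.64 and 0.39. The median of the 8 tested members was −0.10 at day 4, against −0.03 for all genes. The change from day 0 to day 4 was compared between KO and WT directly. In limma 0% of 12257 genes passed that test, and 537 genes (4.38%), 0 of them members, had an unadjusted p under 0.05. Without WT day 0 replicate 1, 4 genes passed, without WT day 4 replicate 3, 1 gene, and without the 3 libraries that stood apart, 3 genes. For *Fyn* that difference of changes was −0.45 ± 0.34 (SE, log2). With 1 library left out it lay between −0.68 (without WT day 4 replicate 2) and −0.23 (without WT day 4 replicate 1). It was −0.09 without KO day 0 replicate 3 and WT day 4 replicate 1 together, and −0.08 without the 3 libraries that stood apart.

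From day 0 to day 4 members rose and fell in WT, and in KO those past the threshold fell. *Ptk2* was at 11.1, 12.4 and 15.8 FPKM in WT at day 0 and at 21.4, 19.3 and 20.8 at day 4. *Lyn* in KO was at 3.99, 3.56 and 1.74 FPKM at day 0, above its 3 values at day 4. In WT *Fyn* rose by 0.84 ± 0.24 and *Ptk2* by 0.62 ± 0.15, while *Src* fell by 0.83 ± 0.23 and *Yes1* by 1.25 ± 0.27 (SE, log2; adjusted p 0.0256, 0.0105, 0.0233 and 0.00669). Thus 4 of 8 tested members changed, against 25.8% of all genes. In KO *Lyn* fell by 1.22 ± 0.31 and *Yes1* by 1.15 ± 0.27 (SE, log2; adjusted p 0.0184 and 0.0127), 2 of 8 members, against 19.3% of all genes, while *Fyn* and *Ptk2* did not pass (0.39 and 0.30, adjusted p 0.281 and 0.167). Cell type markers moved too. In both lines all 5 pluripotency markers fell and all 4 epiblast-like markers rose, while of 3 neural progenitor markers 2 rose in WT and 0 passed in limma in KO (0 at an unadjusted p under 0.05). Of 4 neuron markers 2 rose in WT, and in KO *Map2* rose by 1.25 and *Stmn2* fell by 2.39 (log2; adjusted p 0.0205 and 0.00574). The endothelial gene *Pecam1* fell in WT by 1.58, and the myelin gene *Mbp* rose in KO by 1.12 (adjusted p 0.0337 and 0.0395), each 1 of 2 tested of its list. Of 2 fibroblast markers tested, 1 rose in each line, in KO *Thy1* by 1.55 (log2; adjusted p 0.0478). The part of all these markers in the changes of the members was not tested. The difference of these changes between lines passed for no member. *Ptk2* and *Yes1* in WT passed with each of the 12 libraries left out in turn. The rise of *Fyn* in WT did not pass without WT day 0 replicate 1 or 2 or WT day 4 replicate 1 or 3 (adjusted p 0.0570, 0.0983, 0.0948 and 0.0654), nor without KO day 0 replicate 3 and WT day 4 replicate 1 together (0.61, 0.0704). The fall of *Src* in WT did not pass without WT day 0 replicate 3 or WT day 4 replicate 1 or 2 (0.0882, 0.0821 and 0.0644). Without the 3 libraries that stood apart only *Yes1* passed in WT. The changes of *Fyn*, *Ptk2* and *Src* were then 0.60, 0.49 and −0.72 (log2; adjusted p 0.112, 0.0702 and 0.0588). In KO the fall of *Yes1* was lost without KO day 0 replicate 1 or 2 (0.0556 and 0.0619). That of *Lyn* was lost without either of these (0.0770 and 0.0764) or KO day 4 replicate 1 or 2 (0.0598 and 0.05005). *Src* in KO passed without KO day 0 replicate 3 (−0.73, adjusted p 0.0381), with KO day 0 replicate 3 and WT day 4 replicate 1 both left out (0.0305), and without the 3 libraries that stood apart (0.0351). All-gene counts were 1831 and 1991 in WT without WT day 0 replicate 2 and 3, 1281, 1041 and 1150 in KO without KO day 0 replicate 1 and 2 and KO day 4 replicate 3, and 3577 in KO without the 3 libraries that stood apart.

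Blood and immune markers were read because *Lck*, *Lyn* and *Fgr* are known from such cells. In these E14 samples *Ptprc* was listed at 0 in all 12, and *Csf1r* and *Aif1* reached at most 0.14 and 0.07 FPKM. The 8 blood and immune markers summed to between 1.92 and 12.4 FPKM in a sample, led by *Coro1a* or *Cd3e*. Of the 2 tested, *Coro1a* rose in KO by 1.98 (log2; adjusted p 0.0223) and *Cd3e* fell in WT by 1.79 (adjusted p 0.0205) from day 0 to day 4. In the R1 samples the listed markers summed to between 2.62 and 9.53 FPKM in SFEB populations and between 5.49 and 13.1 in adherent culture, led by *Coro1a*. Over time *Coro1a* rose in both (0.16 and 0.18 per day), *Cd79a* fell in both (−0.14 and −0.09), and *Cd3e* and *Itgam* fell in adherent culture (−0.17 and −0.08). The part of blood cells in the levels of *Lck*, *Lyn* and *Fgr* was not tested.

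In SFEB populations *Fyn* first sank and then climbed. It stood at 7.29 and 9.88 FPKM in the 0 h samples of the first and parallel series, at 4.24 at 34 h, its lowest, at 7.39 at 68 h, at 14.1 at 92 h, at 20.2 at 142 h and at 34.5 at 216 h, its highest. Its median over 22 populations was 7.68 FPKM. A straight line in time, fitted in limma with the series as a covariate over 13115 genes, rose by 0.24 ± 0.04 (SE, log2 per day; adjusted p = 4.06e-06). For all R1 slopes the fit took libraries of the same time course as independent. Their SE and p measure scatter around the line, not spread between inductions. *Csk* rose by 0.19 ± 0.02 per day, from 19.3 and 17.4 FPKM at 0 h to 45.9 at 216 h, with the highest value of 53.4 at 103 h. *Ptk2* rose by 0.11 ± 0.02 per day, between 14.6 and 31.7 FPKM. *Src* dipped to 6.89 FPKM at 38 h from 15.003 and 12.7 at 0 h and reached 18.2 at 216 h, a slope of 0.07 ± 0.03 (SE, log2 per day; adjusted p = 0.0339). These 4 of 8 tested members rose, where 35.1% of all genes did.

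The other SFEB members went down or did not pass. *Lck* fell by 0.17 ± 0.03 per day, from 10.4 and 14.7 FPKM at 0 h to 3.15 at 216 h, and *Fgr* by 0.14 ± 0.03 per day, with a highest value of 1.45 FPKM. *Yes1* fell by 0.08 ± 0.03 per day (SE, log2; adjusted p = 0.0332), and most of its drop lay before 42.5 h, from 23.1 and 27.5 FPKM at 0 h to 8.99. So 3 of 8 members fell, where 27.1% of all genes did. *Lyn* stayed between 0.38 and 1.77 FPKM, with a slope of 0.01 ± 0.03. The slopes of *Src* and *Yes1* did not pass in the first series alone (adjusted p 0.393 and 0.110) or the parallel series alone (0.0525 and 0.190). That of *Src* did not pass without the 216 h sample (0.226), nor that of *Yes1* without the parallel 0 h sample (0.130). Without the 216 h sample the slope of *Fyn* was 0.22 in SFEB and 0.25 in adherent culture (adjusted p 0.000142 and 1.35e-05).

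**Figure D2:**
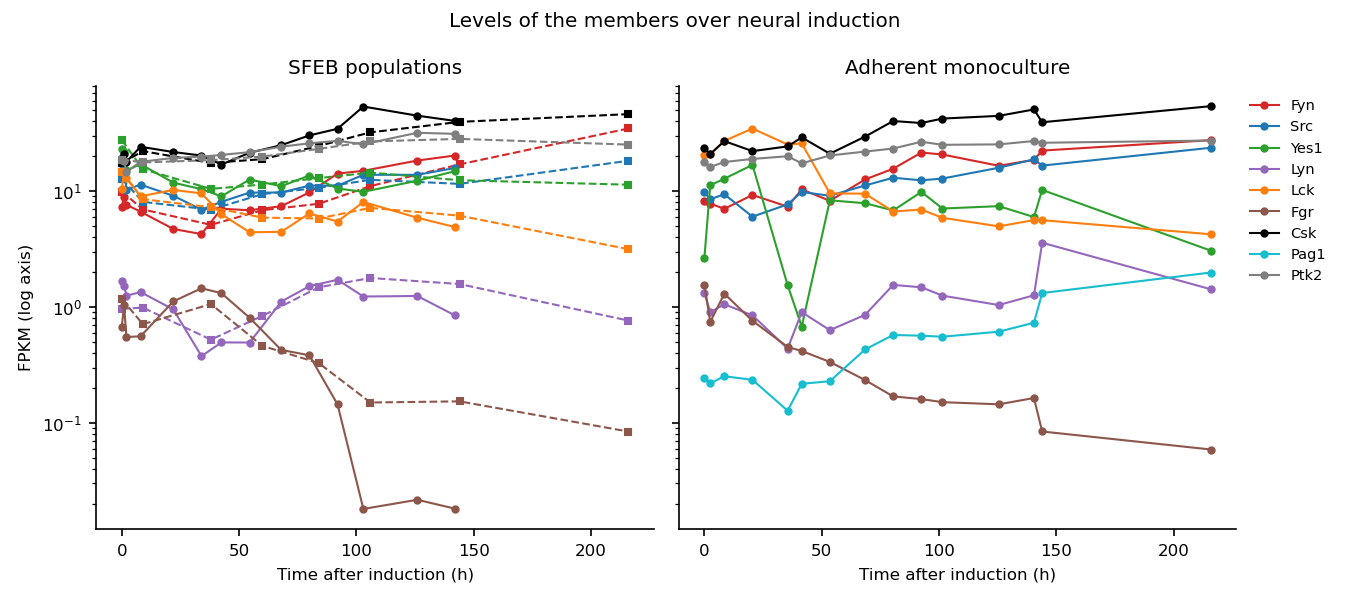
FPKM on a log axis against hours of induction for the members in SFEB populations (solid lines, the first series; dashed lines, the parallel series) and in adherent monoculture; each point is 1 library. *Fyn* reaches 34.5 FPKM in SFEB and 27.4 in adherent culture at 216 h, while *Lck* ends at 3.15 and 4.23.

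Adherent monoculture gave its own table, and levels were compared only within it. *Fyn* was at 8.18 FPKM at 0 h, lowest at 7.01 at 8.5 h, at 12.6 at 68.5 h and at 27.4 at 216 h, a slope of 0.22 ± 0.03 (SE, log2 per day; adjusted p = 4.44e-06). *Src* rose by 0.17 ± 0.02 per day from 9.77 to 23.6 FPKM, and *Csk* by 0.16 ± 0.02 per day from 23.4 to 53.8. *Pag1* rose by 0.14 ± 0.02 per day from 0.24 to 1.98 FPKM, and *Ptk2* by 0.09 ± 0.01 per day from 17.8 to 27.2. These 5 of 8 tested members rose, where 35.8% of 13136 genes did. *Lck*, the T cell kinase, fell by 0.33 ± 0.05 (SE, log2 per day; adjusted p = 2.16e-05), from a peak of 34.5 FPKM at 20.5 h to 4.23 at 216 h. It was the only 1 of 8 tested members to fall, where 23.7% of all genes did. *Fgr* was too low to be tested, at 1.55 FPKM at 0 h and 0.059 at 216 h.

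*Yes1* behaved unevenly in the adherent course. It was at 2.64 FPKM at 0 h, 11.2 at 2.5 h, 12.7 at 8.5 h and 16.8 at 20.5 h, then 1.54 at 35.5 h and 0.68 at 41.5 h, and 8.30 at 53.5 h. Its slope was −0.02 ± 0.09 (SE, log2 per day). Single libraries thus lay far from their neighbours in time, and with 1 library per time no error can be given. *Lyn* lay between 0.44 and 3.57 FPKM, and its slope of 0.07 ± 0.03 passed only without the 216 h sample (0.10, adjusted p 0.0470).

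Levels of the members were compared between genes in FPKM, per gene length. In SFEB populations the medians ran from *Csk* (23.0 FPKM) and *Ptk2* (21.0) through *Yes1* (12.4), *Src* (11.1), *Fyn* (7.68) and *Lck* (6.77) to *Lyn* (1.17) and *Fgr* (0.51), and the ranges of neighbours in this order overlapped, other than those of *Lck* (lowest 3.15) and *Lyn* (highest 1.77). In adherent culture *Csk* (29.4) and *Ptk2* (21.8) led, then *Fyn* (12.6), *Src* (11.1), *Lck* (9.47) and *Yes1* (7.39), before *Lyn*, *Pag1* and *Fgr*. In WT E14 cells at day 0 *Yes1* led with a median of 25.1 FPKM, followed by *Csk* (20.02) and *Src* (16.96). At day 4 *Csk* (24.3) and *Ptk2* (20.8) led and *Fyn*, at 6.76, was the fifth of 9. In KO at day 4 *Fyn*, at 1.19, was the sixth.

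Markers of cell types moved with time in the R1 samples. All 5 neural progenitor markers rose (median 0.68 per day in SFEB and 0.57 in adherent culture), 3 of 4 tested neuron markers rose in each (0.37 and 0.34), and all 5 pluripotency markers fell (−0.53 and −0.42). The sum of the 4 epiblast-like markers rose and fell again. In SFEB it went from 44.0 and 69.9 FPKM at 0 h to 640 at 42.5 h and 65.1 at 216 h. In adherent culture it went from 63.1 FPKM at 0 h to 520 at 53.5 h and 107 at 216 h. By slope in limma, 0 of 4 passed in SFEB and 1, *Fgf5*, in adherent culture (0.26 per day, adjusted p 0.0198). *Fyn*, *Src* and *Yes1* were lowest in SFEB at 34, 38 and 42.5 h. Of the oligodendrocyte lineage markers, 2 of 2 tested rose in SFEB and 3 of 3 in adherent culture, with *Mbp* at 0.29 and 0.30 per day. Of the endothelial markers, 2 of 3 and 1 of 2 fell, with *Pecam1* at −0.45 and −0.46. At 0 h *Pecam1* alone gave 25.5 and 38.7 FPKM of sums of 28.7 and 41.1 in the first and parallel series. In adherent culture it gave 34.5 of 36.1. In SFEB populations all 8 fibroblast markers fell, and their sum went from 755 and 790 FPKM at 0 h to 12.7 at 142 h and 102 at 216 h, led by *Col1a1* at 0 h (316 and 292). In adherent culture 7 of 8 fell, from a sum of 326 FPKM at 0 h to 41.9 at 216 h. In E14 samples the sum of fibroblast markers was at most 11.8 FPKM. Per the methods of the study, cells were passaged off feeders before induction. The part of any of these cell types in the levels and slopes of *Fyn*, the other members and their partners was not tested. Without samples before 20 h, the slopes of *Fyn* were 0.38 in SFEB and 0.22 in adherent culture (adjusted p 4.05e-09 and 0.000318), and *Src* rose by 0.17 and 0.21 per day. *Yes1* in SFEB then had a slope of 0.03 (adjusted p 0.318) in place of its fall, and *Lck* fell by 0.11 and 0.34 per day.

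Which members are co-expressed with *Fyn* was described by Pearson's r of log2(FPKM + 1), with no test, since points share the time course. Over the 22 SFEB populations *Csk* had r 0.838 (Spearman's rho 0.696), *Src* 0.777 (0.792) and *Ptk2* 0.707 (0.683). Within the first and the parallel series r was 0.840 and 0.882 for *Csk*, 0.708 and 0.900 for *Src*, and 0.765 and 0.684 for *Ptk2*. Without the 216 h sample it was 0.829, 0.717 and 0.772. Thus 3 of 7 members had an r of at least 0.5, where 33.4% of 13114 genes did. *Lyn* (0.288), *Yes1* (−0.032) and *Lck* (−0.468) were lower, and *Fgr* was lowest at −0.796. Over the 15 adherent samples *Ptk2* had r 0.919 (rho 0.871), *Csk* 0.914 (0.804), *Pag1* 0.874 (0.825), *Src* 0.859 (0.850) and *Lyn* 0.651 (0.643), 5 of 7, against 39.8% of 13135 genes. *Lck* stood at −0.873 there.

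These values lie inside a broad field of rising genes. *Csk* ranked 1363 of 13114 in SFEB and 883 of 13135 in adherent culture, so 10.4% and 6.71% of genes were more like *Fyn*. With a straight line in time removed from both genes, *Src* kept r 0.806 in SFEB but 0.130 in adherent culture, and *Ptk2* had 0.012 and 0.543. *Csk* then had 0.458 and 0.532. *Yes1* and *Lck* had 0.707 and 0.531 in SFEB but 0.259 and −0.392 in adherent culture. *Lyn* had 0.431 and 0.537, *Fgr* had −0.419 in SFEB, and *Pag1* had 0.181 in adherent culture. The order of the members by likeness to *Fyn* thus differed with and without the straight line.

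Genes most like *Fyn* in both courses, ranked by the smaller r among 10979 genes with r of the same sign, were *Serf1* (0.965 in SFEB and 0.964 in adherent culture), *Reep1* (0.961 and 0.965), *Gnas* (0.959 and 0.959), *Fam171a1* (0.956 and 0.959) and *Jazf1* (0.955 and 0.966). *Gnas*, which encodes the stimulatory G protein alpha subunit, went from 215 FPKM at 0 h of the parallel series to 668 at 216 h. At the other end were *Shmt1* (−0.946 and −0.954), *Ftsj3* (−0.949 and −0.941), *Polr3b* (−0.940 and −0.960), *Msh6* (−0.932 and −0.951) and *Rps6ka1* (−0.934 and −0.929). *Msh6*, a mismatch repair gene, went from 186 to 47.7 FPKM. None of the 9 of these genes tested in E14 cells passed in KO against WT, and *Reep1* at day 0 was nearest (−1.73 ± 0.37, SE, log2; adjusted p = 0.0919).

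Partners of the family were read with the members left out. Over time 25 of 31 tested passed in SFEB, where 62.2% of all genes did, and 22 of 30 in adherent culture, where 59.4% did. Between KO and WT, 0 genes of the lists of negative regulators, phosphatases, focal adhesion genes and neural partners passed in limma on either day, and 3 at day 0 and 4 at day 4 of the 26 tested had an unadjusted p under 0.05, as 14.6% and 12.1% of all genes did. Of 10 neural partner genes tested in SFEB, 9 rose, where 35.1% of all genes did, with a median slope of 0.30 per day against 0.01 for all genes. These included the netrin receptor gene *Dcc* (0.49), the Reelin gene *Reln* (0.29), its receptor genes *Lrp8* (0.31) and *Vldlr* (0.21) and its adaptor gene *Dab1* (0.15). In adherent culture 9 of 10 rose as well, against 35.8% of all genes (median 0.27 against 0.02). In WT E14 cells 4 of 8 rose and 1 fell from day 0 to day 4, where 25.8% of all genes changed, with *Dab1* up by 1.67 while *Mapt* fell by 2.39 (log2). In KO 2 of 8 rose and 2 fell, where 19.3% of all genes changed, with the prion protein gene *Prnp* up by 1.75 and the netrin gene *Ntn1* at −2.17.

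Among phosphatases that can free the kinases, *Ptpra*, *Ptpn1* and *Ptpn11* rose in SFEB (0.19, 0.12 and 0.09 per day) and in adherent culture (0.19, 0.11 and 0.09), 3 of 4 and 3 of 3 tested. *Ptpra* also rose in WT E14 cells, by 0.81 (log2). Of the negative regulators, *Csk* and *Pag1* left out, 3 of 5 tested rose and 1 fell in SFEB, and 2 of 5 rose and 1 fell in adherent culture, with the ubiquitin ligase gene *Cblb* at 0.21 and 0.36 per day. Of 12 focal adhesion genes, *Ptk2* left out, 5 rose and 4 fell in SFEB, and 5 rose and 2 fell in adherent culture. Of all genes 35.1% rose and 27.1% fell in SFEB, and 35.8% rose and 23.7% fell in adherent culture. The scaffold gene *Nedd9* rose (0.33 and 0.24 per day), and the talin gene *Tln1* fell (−0.18 and −0.15).

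The 3 nearest protein-coding genes on each side of *Fyn* gave no difference past the threshold in KO. *Traf3ip2*, 47553 bases beyond the end of *Fyn*, had means of 7.28 FPKM in WT and 5.88 in KO at day 0, and 2.24 and 3.23 at day 4 (adjusted p 0.728 and 0.739). *Rev3l* and *Tube1* differed by 0.09 ± 0.17 and 0.03 ± 0.24 (SE, log2) at day 0. At day 4 they differed by −0.14 ± 0.17 and 0.36 ± 0.24 (SE, log2; adjusted p 0.809 and 0.589). *Wisp3* and *2010001E11Rik* were under 0.3 FPKM in mean in every E14 group and not tested, and *1700025K23Rik* is not listed in that table. Over SFEB time *Traf3ip2* fell by 0.26 per day, *Tube1* and *Rev3l* rose by 0.12 and 0.11, as *Fyn* did, and *1700025K23Rik* did not pass (0.01). In adherent culture *Traf3ip2* fell by 0.23 per day, *Tube1* and *1700025K23Rik* rose by 0.07 and 0.15, and *Rev3l* did not pass (0.03).

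Single cells held *Fyn* above 0 RPKM in 50 of 64 cells (78.1%, exact 95% interval 66.0 to 87.5, counting error only), but above 0.5 RPKM in only 24. The 8 cells of a time come from 1 culture and count as 1 sample. *Fyn* exceeded 0.5 RPKM in 2 of 8 cells at each of 0, 9, 38 and 60 h, in 3 at 84 h, 5 at 106 h, 6 at 144 h and 2 at 216 h. At 144 h a pair of cells was at 0, 4 lay between 6.65 and 10.3 RPKM, and the others were at 264 and 207. At 216 h the highest cell was at 22.5 RPKM and the next at 1.25. Median *Fyn* was 8.35 RPKM at 144 h and 0.0047 at 216 h, where the populations had 16.9 and 34.5 FPKM. The tables were normalized separately. At 216 h 1 cell stood apart, with the pluripotency gene *Pou5f1* at 85.5 RPKM against a median of 2.72 in the other 7, while *Fyn* was at 0 in it and in 2 of the others.

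*Csk* was the member seen in most cells, above 0 in 63 of 64, followed by *Lck* (57), *Src* (56) and *Ptk2* (56). Among the 50 cells with *Fyn*, *Csk* was above 0 in 50 and each of *Src*, *Lck* and *Ptk2* in 45. Detection itself varied, with a median of 6145 genes above 0 in cells at 144 h and 8972 at 0 h. *Csk* was above 0.5 RPKM in 54 cells, *Lck* in 38, *Ptk2* in 32 and *Src* in 20. The median of *Csk* went from 0.99 RPKM at 0 h to 33.3 at 84 h, 12.04 at 106 h, 7.69 at 144 h and 1.02 at 216 h, and *Src* passed 0.5 RPKM in 0 of 8 cells at 38 h, the time of its dip in the populations.

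**Figure D3:**
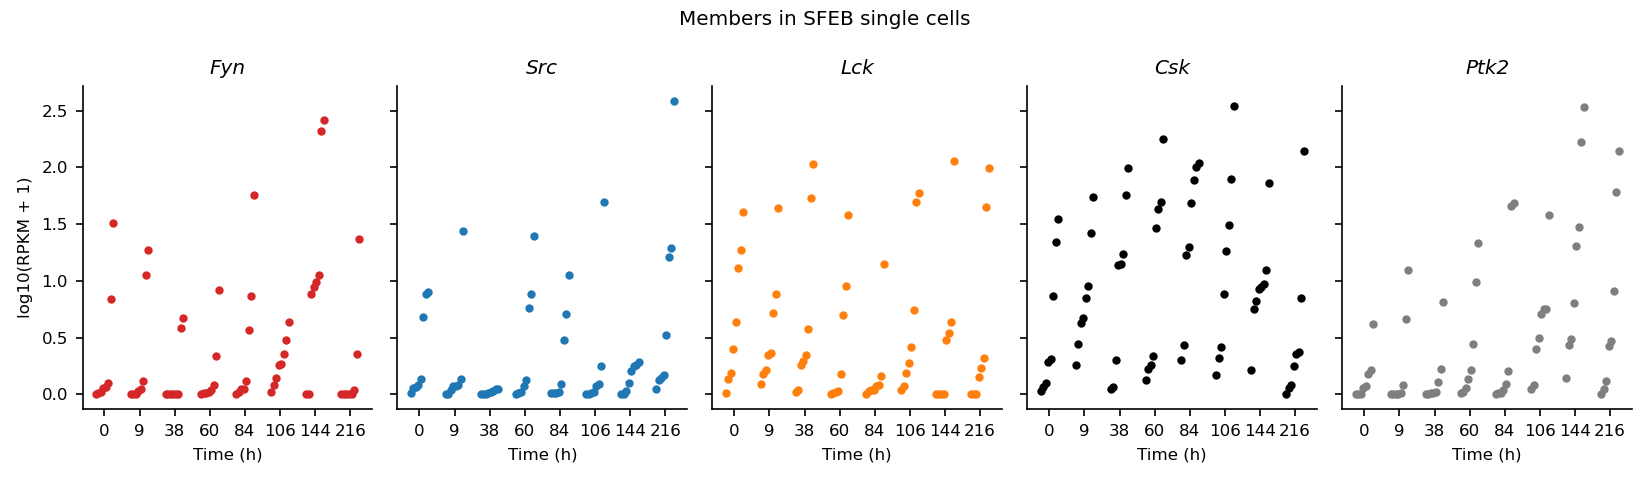
Log10(RPKM + 1) of the 5 members listed in SFEB single cells, by hours of induction; each point is 1 cell, 8 per time, ordered by value. At 144 h 6 of 8 cells have *Fyn* above 0.5 RPKM.

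Promoter windows of RefSeq (build GRCm38.p6), from 250 bases before to 50 after a start, were given for 6 of the 9 members, in 8 entries. *Lyn*, *Pag1* and *Ptk2* had none. The *Fyn* window was 69.0% G or C with 31 CG pairs, and those of *Src* and *Yes1* had 82.3 and 77% with 47 and 42, while the 2 *Lck* windows had 58.3 and 57.3% with 7 and 5. The 2 *Csk* windows had 56.0 and 66.3% with 9 and 24, and that of *Fgr* had 62.7% with 11. The median of 32851 windows was 52.7% and 7. The letters GGGCGG on either strand, known as a GC box, were in 5 of the 8 entries (*Src*, *Yes1*, *Fyn*, 1 of 2 of *Csk*, and *Lck* (b) below) and in 35.7% of all windows. To show *Fyn*, which rose in both R1 courses, beside *Lck*, which fell in both, the 120 bases before each start are given, with GC boxes in capitals. In this shorter window 26.5% of all entries hold one, and the GC box of *Lck* (b) begins 1 base before it, so 5 of its 6 bases are printed in lower case. The positions are chr10:39369679-39369798 on the plus strand for *Fyn*, and chr4:129573642-129573761 (a) and chr4:129558373-129558492 (b) on the minus strand for *Lck*.
Fyn: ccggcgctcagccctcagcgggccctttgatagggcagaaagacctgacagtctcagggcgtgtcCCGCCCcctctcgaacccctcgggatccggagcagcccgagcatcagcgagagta
Lck (a): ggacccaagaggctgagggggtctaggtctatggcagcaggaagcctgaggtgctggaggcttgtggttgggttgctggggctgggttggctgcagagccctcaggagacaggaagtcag
Lck (b): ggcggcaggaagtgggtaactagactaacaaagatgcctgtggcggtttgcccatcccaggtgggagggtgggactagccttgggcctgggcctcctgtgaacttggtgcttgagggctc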

How the data were processed

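Single-end RNA-seq reads were mapped and quantified by the authors, who deposited 1 gene table for each kind of sample. Per the labels, TopHat2 2.0.8b and Cufflinks 2.1.1 were used, with build mm9 for R1 and mm10 for E14 samples; the study's methods name earlier versions. Adherent and E14 values were deposited as FPKM. SFEB population values were deposited as FPKM after ComBat correction by the authors, and 1256 of them lie below 0 and were set to 0 here. The correction batches are not given in the sources used here. Single-cell values were deposited as log10(RPKM + 1) after quantile normalization and were converted back to RPKM.

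Members and gene lists were chosen with earlier results of these data known. Named genes were the 9 members, genes that passed a test (up to 10 by size) in the lists described, the 5 genes most and the 5 least like *Fyn*, and the 3 nearest genes on each side of it. *Ptprc*, *Csf1r* and *Aif1* were named as well, as blood and immune markers too low to be tested in E14 cells. E14 samples entered 1 limma model of 4 group means over genes that reached 1 FPKM in 3 or more of the samples. Time courses were regressed on days over genes above 0.5 FPKM in at least 8 SFEB or 6 adherent samples. All used log2(FPKM + 1), trended empirical Bayes variance, two-sided tests and Benjamini-Hochberg adjustment over all genes tested. R 4.3.3 with limma 3.58.1 and Python 3.11.15 (matplotlib 3.10.9, scipy 1.17.1, pandas 2.3.3, numpy 2.4.6) were used, and the fits were tested on simulated data.

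Equal replicate numbers were checked for pairing by the correlation of residuals. These were 0.136, 0.258 and 0.240 between WT and KO at day 4, and 0.199, 0.220 and 0.224 between days in WT, each higher than between unlike numbers. A model with the replicate as a block was therefore also fitted, and it changed no call of a member in these comparisons. Alternatives were a pseudocount of 0.1 FPKM, no filter, quantile normalization, no variance trend, a replicate block, leaving out each E14 sample, single series, and leaving out late samples. Leaving out KO day 0 replicate 3 and WT day 4 replicate 1, these and WT day 0 replicate 1, the parallel 0 h sample, or samples before 20 h was chosen after seeing the data.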

Additional observations from a re-analysis of the deposited data

How the results depend on the processing

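Among 711 values of single members under 26 alternatives, *Fyn* in KO against WT included, 670 kept their side of the threshold, 29 no longer passed, 11 newly passed and 1 reversed, and 25 values that never passed changed sign. The reversal was for *Yes1* in SFEB populations, whose slope was 0.027 without samples before 20 h, with fewer samples and without the early drop. With a pseudocount of 0.1 FPKM *Fyn* at day 0 passed (−2.01, adjusted p 0.0486, 1 member). Without a filter 35 genes passed at day 0, 24 at day 4 and 1 in the difference of changes, and with quantile normalization 17 passed at day 4. The cause was not tested.

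WT and KO at day 0 (correlations of 0.0628, 0.339 and −0.115) and the days in KO (0.0239, 0.0899 and 0.00112) share only a replicate number. With the replicate block 38 genes passed at day 0, with *Fyn* at −1.29 (adjusted p 0.0436, 1 member), and 2 in the difference of changes. The block changed no other call of a member. Without KO day 0 replicate 3 and WT day 4 replicate 1, 64 genes passed at day 0, with *Fyn* at −1.42 (1 member). Without these and WT day 0 replicate 1, 245 genes passed at day 0, with *Fyn* at −1.44 (1 member), 17 at day 4, with *Fyn* at −1.52 (adjusted p 0.0519, 0 members), 3577 between days in KO and 3 in the difference of changes, and 1 member passed between days in WT, with 9 samples in the fit.

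Leaving out each E14 sample gave 4 to 128 genes and 0 to 1 members at day 0, 5 to 14 genes and 0 to 1 members at day 4, 1831 to 3528 genes and 2 to 4 members between days in WT, 1041 to 3063 genes and 0 to 3 members between days in KO, and 0 to 4 genes in the difference of changes. *Fyn* lay between −1.42 and −1.18 at day 0 and between −1.97 and −1.52 at day 4. *Fgr* passed the filter in 9 of these 12 fits. With 1 straight line removed, 3 members had an r of at least 0.5 with *Fyn* in adherent culture, in place of 5. The share of all genes given there (39.8%) is that before the line was removed. The share after that step was not computed, so the count cannot be set against it. In SFEB *Src*, *Yes1* and *Lck* reached 0.5 after that step (0.806, 0.707 and 0.531), while *Csk* and *Ptk2* did not (0.458 and 0.012). Above 0.5 RPKM, *Fyn*, *Src*, *Lck*, *Csk* and *Ptk2* were in 37.5, 31.2, 59.4, 84.4 and 50% of cells.

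With quantile normalization *Lyn* between days in WT passed (−0.92, adjusted p 0.0413). R1 slopes have 1 library per time, and a straight line describes a dip poorly.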
